A study of Homo sapiens with 16 samples.

Results

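Translation initiation factor mRNAs were followed through 4 groups of HEK293 cells, a human embryonic kidney cell line, as the protein-coding genes whose symbol begins with EIF. This rule took 56 of the 58302 gene identifiers in the count tables, and left out 81 EIF pseudogenes and 6 EIF lncRNA genes. The genes fall into 8 classes by the factor they encode. There were 5 genes for eIF1 and eIF1A, 6 for eIF2, eIF2A and eIF2D, 5 for eIF2B, 4 for the eIF2 kinases and 14 for eIF3. A further 5 belong to eIF4A, eIF4B and eIF4H, 11 to eIF4E, eIF4G and their partners, and 6 to eIF5, eIF5B, eIF5A and eIF6.

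RNA came from cells transfected with 100 nM of an siRNA against Gemin5 (siRNAG5) and from control cells (Ctrl). The sample labels call the controls untreated, while the methods speak of a control siRNA, and which holds is not settled here. Gemin5 is an RNA-binding protein of the SMN complex, which assembles snRNPs, and it also binds ribosomes. RNA of the cytoplasmic lysate (Input) and of the pooled heavy sucrose gradient fractions (Polysome) was sequenced after poly(A) selection. Each of the groups Input Ctrl, Input siRNAG5, Polysome Ctrl and Polysome siRNAG5 held 4 libraries from independent biological samples. Levels are given in CPM, counts scaled to a common library total, with one TMM scaling over all 16 libraries. A log2 fold change (log2 FC) comes from an edgeR fit with its own scaling, and is followed by its standard error (SE). A gene was called when its Benjamini-Hochberg adjusted p in the edgeR quasi-likelihood test was below 0.05 and its log2 FC was beyond 0.5 in either direction.

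Initiation on a capped mRNA starts when eIF4E binds the cap and eIF4G bridges it to the eIF4A helicase, to the poly(A)-binding protein and to eIF3 on the small ribosomal subunit. The small subunit also carries eIF1, eIF1A and the ternary complex of eIF2, GTP and initiator tRNA. When the start codon is found, eIF5 promotes GTP hydrolysis by eIF2, eIF5B joins the large subunit, and eIF2B reloads eIF2 with GTP. The pathway is held back in 2 well known ways, by kinases that phosphorylate the alpha subunit of eIF2 and by the 4E-binding proteins, which cover eIF4E. Some mRNAs of the translation machinery begin with a C and a run of pyrimidines, the 5′ terminal oligopyrimidine (TOP) motif, which ties their translation to mTOR signalling.

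The first bases of these mRNAs are shown because TOP motifs sit there and because genes with and without such a start are set side by side in the comparison of fractions. Of the 56 genes, 47 had an entry in the RefSeq table of promoters (GRCh38.p14). Entries were not present for EIF2AK1, EIF2S2, EIF3A, EIF3CL, EIF3E, EIF3G, EIF3H, EIF3L and EIF4EBP1. At an annotated start, 10 of the 47 genes (21.3%) had a C followed by at least 4 pyrimidines, a start called TOP-like below, against 5.14% of all 27305 genes in that table (4.07% of 35116 starts). Both strands were read in the direction of the gene, only at the start itself, and an annotated start need not be the one used in HEK293 cells. Each line gives 10 bases before the annotated start and 20 from it, with the pyrimidine run of a TOP-like start in capitals and all other bases in lower case.
EIF3D (chr22:36529147-36529176, minus strand): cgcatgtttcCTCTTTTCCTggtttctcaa
EIF3F (chr11:7987327-7987356, plus strand): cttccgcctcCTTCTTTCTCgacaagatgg
EIF3K (chr19:38619178-38619207, plus strand): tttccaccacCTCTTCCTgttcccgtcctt
EIF3M (chr11:32583821-32583850, plus strand): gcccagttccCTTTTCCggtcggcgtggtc
EIF2A (chr3:150546777-150546806, plus strand): cgagcggtttCTCTTTCCgggacaacatgg
EIF2D (chr1:206612446-206612475, minus strand): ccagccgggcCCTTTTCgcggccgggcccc
EIF2S3 (chrX:24054946-24054975, plus strand): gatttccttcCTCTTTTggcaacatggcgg
EIF2S3B (chr12:10505880-10505909, plus strand): gactttcttcCTCTTTTggcaacatggcgg
EIF4A2 (chr3:186783567-186783596, plus strand): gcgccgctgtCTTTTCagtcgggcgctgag
EIF4B (chr12:53006446-53006475, plus strand): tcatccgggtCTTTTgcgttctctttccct
The next 3 lines hold genes without such a start, EIF4H, EIF1AX and EIF3J, which had some of the highest Polysome to Input ratios.
EIF4H (chr7:74174346-74174375, plus strand): ctcgctcaccctggttcctctcggagcgga
EIF1AX (chrX:20141819-20141848, minus strand): gagtcgcggcgccatttgctgccgccgagc
EIF3J (chr15:44537137-44537166, plus strand): ccgccgtgctaactcctcgctagctctccc
The TOP-like runs were between 5 bases (EIF4B) and 10 bases long (EIF3D and EIF3F). EIF2S3B, a near copy of EIF2S3, shares its run, and a second annotated start of EIF2S3B lacks it.

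Libraries held between 11145324 and 24511299 reads on genes. Reads that mapped to several places, which were not counted on genes, made up 4.88% to 6.04% in Input and 21.2% to 42.4% in Polysome. GEMIN5, the targeted gene, had 15.9, 18.9, 16.01 and 20.7 CPM in Input Ctrl 1 to 4 and 7.46, 6.51, 6.22 and 6.68 CPM in Input siRNAG5. In Polysome Ctrl it had 5.50, 7.21, 7.76 and 9.28 CPM, and in Polysome siRNAG5 2.10, 3.08, 3.05 and 2.35 CPM. The log2 FC was -1.40 (SE 0.12, adjusted p = 3.11e-10, edgeR) in Input and -1.44 (SE 0.21, adjusted p = 0.00477) in Polysome. Polysome Ctrl 1, Polysome siRNAG5 1 and Polysome siRNAG5 4 stood apart from the other 5 Polysome libraries on the third principal component, at 38.5, 35.3 and 35.6 against -26.3 to 2.16. All 9 HEK293 markers were detected, with a summed level of 1176 to 1694 CPM in Input and 526 to 820.2 CPM in Polysome. The 16 liver markers, among them ALB and APOB, summed to 162 and 143 CPM in Input Ctrl 3 and 4 and to 93.5 to 181 CPM in the 4 Polysome Ctrl libraries. They summed to 5.73 to 13.3 CPM in the other 10 libraries, and 8 of them were at 0 in all Input siRNAG5 libraries and 8 in all Polysome siRNAG5 libraries. The 4 blood markers summed to at most 2.73 CPM in any library.

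Of the 56 genes, 52 passed the filter on low counts in each comparison. EIF4EBP3 had 0 reads, EIF1AY 1, EIF4E1B 10 and EIF4A1 36 reads over the 16 libraries. EIF4A1 encodes the main eIF4A helicase, and 100% of the exon bases of its canonical transcript also lie in exons of SENP3-EIF4A1 and of a further gene on the same strand. Reads that fell on several genes were set apart as ambiguous, so the level of EIF4A1 could not be measured. Ambiguous reads made up 4.14% to 7.41% of all reads listed for a library, those with several places included. For EIF4EBP3 73.2% of the exon bases are shared with ANKHD1-EIF4EBP3, so its 0 reads speak only for the bases that are not shared. For EIF3L 58.5% and for EIF6 26.6% of the exon bases were shared with another gene, and their levels are lower limits. Near copies share reads in a like way. The coding sequences of EIF3C and EIF3CL were 99.9% identical, those of EIF5A and EIF5AL1 98.9%, and those of EIF2S3 and EIF2S3B 98.2%, so the split between the members of each pair is uncertain.

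Per kilobase of transcript, the highest levels in Input Ctrl were those of EIF3I (1260.4 ± 69.9 CPM per kb, SD, n = 4), EIF3K (1173 ± 51.1) and EIF5A (1081 ± 60.7). EIF4EBP1, an eIF4E-binding repressor, followed at 787 ± 25.0, and then EIF3G at 761 ± 44.5 and EIF1 at 616 to 679 CPM per kb. EIF3I, EIF3K and EIF5A overlapped with their neighbour in this order, and so did EIF4EBP1 and EIF3G, while EIF5A lay above EIF4EBP1 and EIF3G above EIF1 in every library. In Polysome Ctrl, EIF5A was first, at 1583 ± 229 CPM per kb, ahead of EIF3I at 940.0 ± 105. By this measure the subunits of eIF3 did not share one level. In Input Ctrl they went from 1260.4 CPM per kb for EIF3I to 3.66 ± 0.444 for EIF3A, which encodes the largest subunit, and lower still for the near copy EIF3CL. The measure divides by the length of the canonical transcript, 772 bases for EIF3K, 1421 for EIF3I, 6659 for EIF3A and 6920 for EIF3F. Which transcripts the cells used was not tested, nor was a bias of the libraries with length. This order need not be that of mRNA molecules.

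In Input, 7 of 52 initiation factor mRNAs changed beyond the fold limit with Gemin5 silencing. EIF5A, EIF2B1, EIF1AD, EIF5AL1, EIF4E and EIF5 fell, with log2 FC from -0.67 to -0.52, and EIF4A2 rose, with a log2 FC of 0.63. Thus 6 of 52 genes were called lower and 1 higher, beside 6.02% called lower and 10.5% called higher of all 14134 genes tested. The median log2 FC of the 52 genes was -0.08, and that of all genes 0.04. Without the fold limit 21 were lower and 13 higher, beside 19.1% and 17.9% of all genes. In 21 genes every siRNAG5 library lay below every Ctrl library and in 11 above, beside 19.1% and 15.1% of all genes.

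In Polysome, EIF5AL1, EIF5A, EIF4E2, EIF2B1 and EIF3G fell, with log2 FC from -0.86 to -0.66, and EIF4A2 rose, with a log2 FC of 0.60. These were 5 genes called lower and 1 higher of 52, beside 4.00% and 3.95% of all 14420 genes tested. The same counts held without the fold limit, beside 4.09% and 4.02% of all genes. The groups did not overlap in 12 genes that were lower and 2 that were higher, beside 10.0% and 8.29% of all genes. The median log2 FC was -0.14, and that of all genes 0.03. The biological coefficient of variation was 0.216 in Polysome and 0.0806 in Input, so an equal change was harder to call in Polysome. The Polysome calls depended on single libraries. The 6 calls became 3 without Polysome Ctrl 1, 2 without Polysome siRNAG5 3 and 1 without Polysome Ctrl 2, Ctrl 4, siRNAG5 1 or siRNAG5 2. EIF5AL1 was the only gene called in all 8 of these fits. Without the 3 libraries that stood apart 8 of 52 genes were called lower and 2 higher, beside 12.1% and 9.02% of all 14717 genes tested in that fit.

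**Figure D1:**
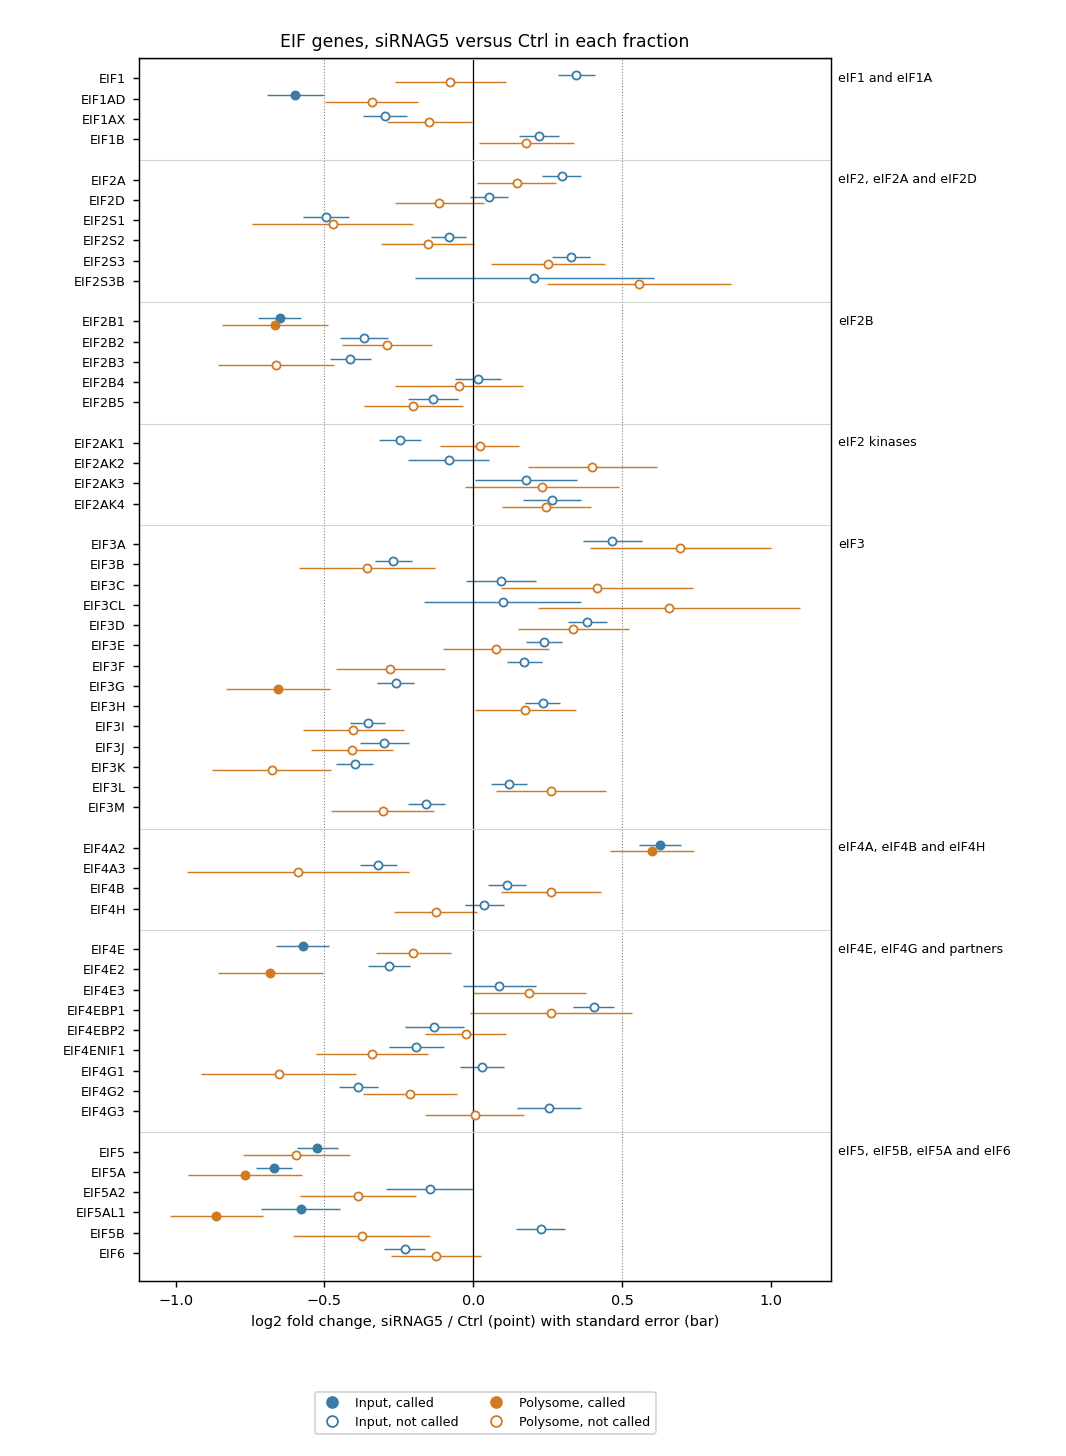
Log2 FC of siRNAG5 against Ctrl (x axis) for the 52 tested genes (y axis, grouped by factor), in Input (blue) and Polysome (orange), with standard errors as bars, filled points for called genes and dotted lines at the fold limit of 0.5. EIF5A, EIF5AL1 and EIF2B1 lie at or below -0.58 in both fractions, EIF4A2 lies at or above 0.60 in both, and the Polysome bars are the wider ones for most genes.

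Among the cap-binding proteins, EIF4E, which encodes the cap-binding subunit of eIF4F, was lower in Input. It had 68.2, 67.4, 66.2 and 58.9 CPM in Input Ctrl and 34.4, 44.8, 44.6 and 49.5 CPM in Input siRNAG5. Every silenced library was below every control, and the log2 FC was -0.57 (SE 0.09, adjusted p = 7e-06, edgeR). The call was lost without Input siRNAG5 1, the lowest library, where the log2 FC was -0.48. In Polysome, EIF4E had 86.6, 96.9, 82.5 and 80.5 CPM in Ctrl and 69.2, 71.2, 74.6 and 78.1 CPM in siRNAG5. These groups did not overlap either, but the log2 FC of -0.20 (SE 0.13, adjusted p = 0.319) was not called.

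EIF4E2 encodes 4EHP, a cap-binding relative of eIF4E that represses translation. In Polysome it had 235, 268, 184 and 203 CPM in Ctrl and 146, 119, 112 and 163 CPM in siRNAG5. There was no overlap between the groups, and the log2 FC was -0.68 (SE 0.17, adjusted p = 0.0376, edgeR). In Input, its log2 FC was -0.28 (SE 0.07, adjusted p = 0.00192), within the fold limit.

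EIF4G1, the main scaffold of eIF4F, was level in Input, at 66.2, 74.2, 76.2 and 74.3 CPM in Ctrl and 72.7, 71.3, 69.2 and 81.2 CPM in siRNAG5 (log2 FC 0.03, SE 0.07). In Polysome EIF4G1 had 43.1, 65.9, 80.9 and 87.6 CPM in Ctrl and 25.5, 55.0, 53.6 and 36.2 CPM in siRNAG5. These groups overlapped, since Polysome Ctrl 1 was below 2 of the silenced libraries, and the log2 FC of -0.65 (SE 0.26, adjusted p = 0.131, edgeR) was not called. The 3 libraries that stood apart were the lowest of their groups for EIF4G1. Without them the log2 FC was -0.47 (adjusted p = 0.0352), within the fold limit.

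EIF4EBP1, which encodes the binding protein that releases eIF4E when mTOR phosphorylates it, had 635, 631, 669 and 668 CPM in Input Ctrl and 981, 777, 899 and 759 CPM in Input siRNAG5. All silenced libraries were above all controls, and the log2 FC of 0.40 (SE 0.07, adjusted p = 2.82e-05, edgeR) stayed within the fold limit. In Polysome EIF4EBP1 had 815, 613, 456 and 509 CPM in Ctrl and 955, 459, 527 and 862 CPM in siRNAG5 (log2 FC 0.26, SE 0.27, adjusted p = 0.563). Its highest values were those of the 3 libraries that stood apart, and without them the log2 FC was -0.04. The other tested genes of this class, EIF4EBP2, EIF4ENIF1, EIF4E3, EIF4G2 and EIF4G3, were called in neither fraction, with log2 FC from -0.39 to 0.25. In all, this class had 1 of 9 tested genes called lower in each fraction and none higher, with medians of -0.13 in Input and -0.20 in Polysome.

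EIF4A2, a helicase close to EIF4A1, was the only EIF gene called higher in either fraction. In Input it had 181, 169, 165 and 162 CPM in Ctrl and 237, 291, 238 and 272 CPM in siRNAG5. The log2 FC was 0.63 (SE 0.07, adjusted p = 3.76e-08, edgeR). In Polysome EIF4A2 had 142, 133, 123 and 134 CPM in Ctrl and 223, 205, 168 and 190.2 CPM in siRNAG5, and the log2 FC was 0.60 (SE 0.14, adjusted p = 0.0277). No silenced library overlapped the controls in either fraction, and the Input call held in all 8 fits without 1 library. The coding sequences of EIF4A1 and EIF4A2 were 77.5% identical. EIF4B and EIF4H, which stimulate the helicase, were called in neither fraction, with log2 FC from -0.13 to 0.26. EIF4A3, the helicase of the exon junction complex, had log2 FC of -0.32 in Input and -0.59 (adjusted p = 0.331) in Polysome, where it had 54.4, 48.7 and 53.0 CPM in the 3 libraries that stood apart and 115 to 171 CPM in the others.

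Of the eIF2B subunits, EIF2B1, which encodes the alpha subunit of this exchange factor, fell in both fractions. It had 187, 221, 189.6 and 177 CPM in Input Ctrl and 113, 118, 132 and 127 CPM in Input siRNAG5 (log2 FC -0.65, SE 0.07, adjusted p = 4.08e-08, edgeR). In Polysome EIF2B1 had 253, 271, 183 and 190.2 CPM in Ctrl and 128, 119, 141 and 162 CPM in siRNAG5 (log2 FC -0.67, SE 0.18, adjusted p = 0.0424). The groups did not overlap in either fraction. EIF2B2 and EIF2B3 had log2 FC of -0.37 and -0.41 in Input, with adjusted p of 0.000547 and 2.45e-05, within the fold limit. EIF2B4 and EIF2B5 had 0.02 and -0.14, and neither passed the test. The median of the 5 genes was -0.37 in Input and -0.29 in Polysome.

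EIF2S1 encodes the alpha subunit of eIF2, the target of the eIF2 kinases. It had 111, 129, 119 and 121 CPM in Input Ctrl and 70.0, 88.0, 88.6 and 90.8 CPM in Input siRNAG5. Every silenced library was below every control, and the log2 FC of -0.49 (SE 0.08, adjusted p = 8.54e-06, edgeR) was just inside the fold limit. It was called in 4 of the 8 fits without 1 library. In Polysome it had 40.5, 97.03, 89.0 and 99.7 CPM in Ctrl and 43.0, 71.1, 69.8 and 43.2 CPM in siRNAG5 (log2 FC -0.47, SE 0.27, adjusted p = 0.28), again with the 3 libraries that stood apart at the bottom. The gamma subunit gene EIF2S3 and EIF2A, which encodes a single-chain protein separate from eIF2, had positive values in Input (0.33 and 0.30, adjusted p = 0.00014 and 0.000614). The 4 kinase genes EIF2AK1 (HRI), EIF2AK2 (PKR), EIF2AK3 (PERK) and EIF2AK4 (GCN2) were called in neither fraction, with log2 FC from -0.25 to 0.40.

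The eIF3 subunits went both ways in Input. EIF3B, EIF3G, EIF3I, EIF3J, EIF3K and EIF3M had an adjusted p below 0.05 with log2 FC from -0.40 to -0.16. EIF3A, EIF3D, EIF3E, EIF3F and EIF3H had one with log2 FC from 0.17 to 0.47. None passed the fold limit, and the median of the 14 genes was 0.10. EIF3A had 23.8, 22.7, 22.3 and 28.7 CPM in Input Ctrl and 28.7, 36.0, 31.3 and 37.2 CPM in Input siRNAG5 (log2 FC 0.47, SE 0.10, adjusted p = 0.000374, edgeR). The highest control and the lowest silenced library were level, at 28.7 CPM. In Polysome EIF3A had 12.2, 17.9, 32.9 and 31.2 CPM in Ctrl and 32.5, 47.7, 43.9 and 23.2 CPM in siRNAG5, so the groups overlapped (log2 FC 0.70, SE 0.30, adjusted p = 0.163). Without the 3 libraries that stood apart it was called, with a log2 FC of 0.80 (adjusted p = 0.0125).

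EIF3G was the eIF3 gene called in Polysome. Its product binds RNA and eIF4B. It had 581, 722, 483 and 609.5 CPM in Polysome Ctrl and 381, 343, 319 and 434 CPM in Polysome siRNAG5. Every silenced library was below every control, and the log2 FC was -0.66 (SE 0.18, adjusted p = 0.0424, edgeR). In Input it had a log2 FC of -0.26 (SE 0.06, adjusted p = 0.0013). EIF3K had nearly the same value in Polysome, -0.68 (SE 0.20, adjusted p = 0.0552), and its groups did not overlap, but it was not called. The median of eIF3 in Polysome was -0.10.

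Among the genes for the late steps, EIF5A and its near copy EIF5AL1 fell in both fractions. eIF5A carries hypusine and helps the ribosome through stretches such as prolines, and at termination. EIF5A had 1374, 1469.8, 1330.4 and 1291 CPM in Input Ctrl and 835, 831, 916 and 823 CPM in Input siRNAG5 (log2 FC -0.67, SE 0.06, adjusted p = 1.07e-09, edgeR). In Polysome it had 2065, 2381, 1737 and 1820.4 CPM in Ctrl and 999, 1061, 1144 and 1373 CPM in siRNAG5 (log2 FC -0.77, SE 0.19, adjusted p = 0.0349). The groups did not overlap in either fraction.

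EIF5AL1 had 11.9, 14.1, 12.8 and 11.1 CPM in Input Ctrl and 9.72, 8.52, 9.01 and 6.15 CPM in Input siRNAG5. In Polysome it had 19.3, 26.0, 19.5 and 18.6 CPM in Ctrl and 10.4, 10.1, 11.6 and 12.5 CPM in siRNAG5. The groups did not overlap in either fraction, and the log2 FC were -0.58 (SE 0.13, adjusted p = 0.000848, edgeR) and -0.86 (SE 0.16, adjusted p = 0.0117). Its reads were 0.748% to 1.16% of those of EIF5A in every library. With coding sequences 98.9% identical, reads of EIF5A placed on EIF5AL1 cannot be told apart from its own, so the pair may count as a single result.

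EIF5, the GTPase-activating protein of eIF2, had 175, 159.9, 150.5 and 159 CPM in Input Ctrl and 100.0, 121, 108 and 115 CPM in Input siRNAG5. All silenced libraries were below all controls, and the log2 FC was -0.52 (SE 0.07, adjusted p = 6e-07, edgeR). It was -0.49 without Input Ctrl 1 and -0.48 without Input siRNAG5 1, inside the fold limit. In Polysome EIF5 had 211, 281, 273 and 288 CPM in Ctrl and 124, 202, 194 and 156 CPM in siRNAG5. These groups did not overlap either, and the log2 FC of -0.59 (SE 0.18, adjusted p = 0.0613) was not called. The medians of this class were -0.38 in Input and -0.49 in Polysome, and -0.23 and -0.39 without the near copy EIF5AL1. EIF1AD, which carries an eIF1A domain, had 28.4, 28.7, 30.1 and 27.1 CPM in Input Ctrl and 15.7, 20.7, 19.8 and 18.6 CPM in Input siRNAG5. Its log2 FC was -0.60 (SE 0.10, adjusted p = 1.05e-05), and in Polysome -0.34 (adjusted p = 0.178). EIF1, whose product guards start codon choice, had a log2 FC of 0.35 (SE 0.06, adjusted p = 4.71e-05) in Input and of -0.08 (adjusted p = 0.825) in Polysome.

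**Figure D2:**
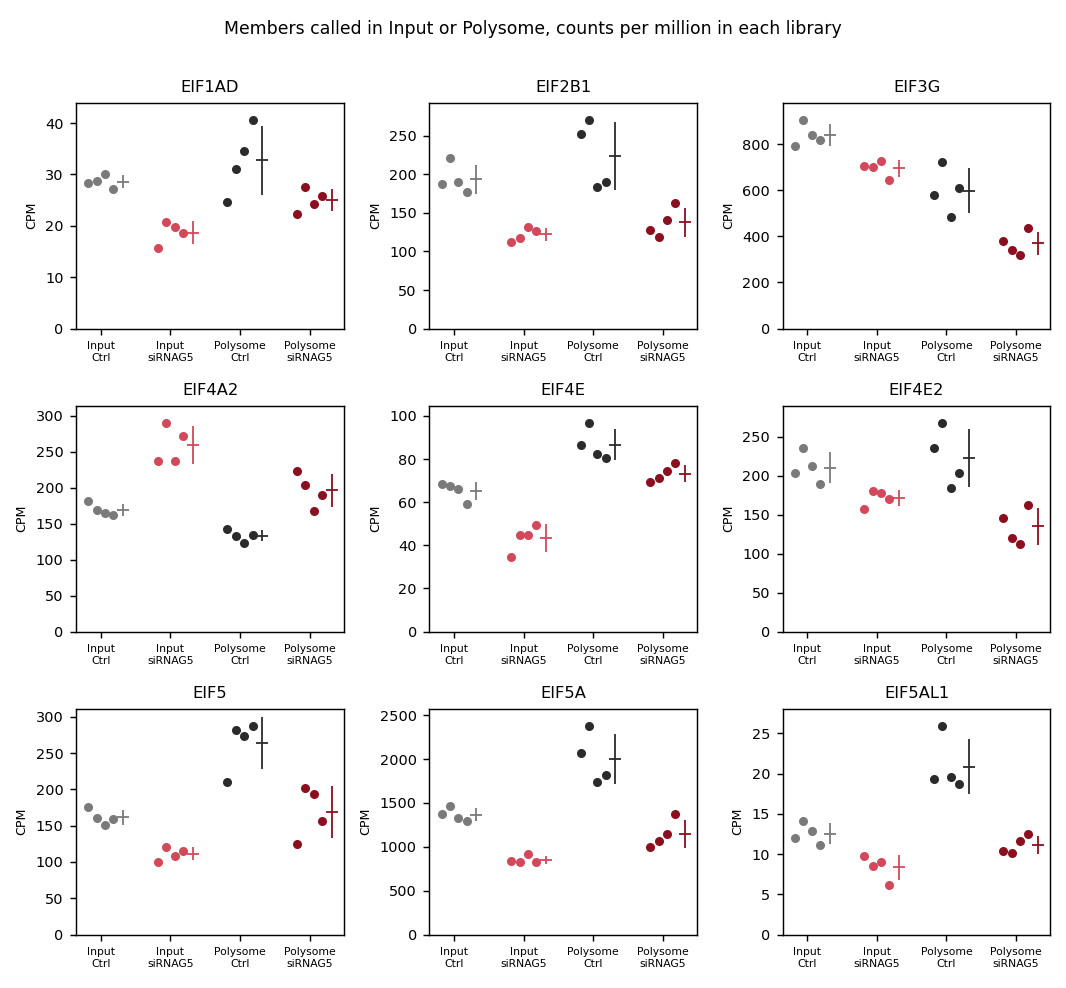
Levels of the 9 genes called in Input or Polysome (y axis, CPM, from 0) in each library of the 4 groups (x axis), with points for the 4 libraries of a group and a bar for their mean and SD. The silenced libraries lie below their controls in both fractions for EIF2B1, EIF3G, EIF4E, EIF4E2, EIF5, EIF5A and EIF5AL1, and above them for EIF4A2. For EIF1AD they lie below in Input and overlap the controls in Polysome.

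The libraries with high liver marker levels were Ctrl libraries, so these levels move with the comparison. In Input, Ctrl 3 and 4 had 162 and 143 CPM, and the other 6 libraries 5.73 to 8.22 CPM. Without both, a fit chosen after seeing the data, the 7 Input calls stayed, with log2 FC from -0.73 to -0.59 for the genes that fell and 0.57 for EIF4A2. EIF3A was then called as well, at 0.53, and the shares of all genes in that fit were 6.64% called lower and 9.97% higher. In Polysome the 4 Ctrl libraries had 93.5 to 181 CPM and the 4 silenced libraries 8.21 to 13.3 CPM, and 13 of the 14 liver markers tested were called lower. The part of this RNA in the Polysome values of the EIF genes was not tested. The levels are shares of each library, so fewer cells of a type and less RNA per cell cannot be told apart.

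The change with silencing was compared between the fractions by an interaction term over all 16 libraries, since a lower level in Polysome can follow a lower level in Input. It called 0 of the 52 EIF genes and 0 of 14958 genes, 0.00% lower and 0.00% higher, by edgeR. DESeq2 called 0 EIF genes, with 11 genes lower and 17 higher in all. At an unadjusted p below 0.05 and beyond the fold limit, 2 EIF genes had a lower change in Polysome than in Input and 0 a higher one, beside 3.46% and 1.82% of all genes. They were EIF4G1, with a difference of -0.72 (SE 0.29, unadjusted p = 0.0234, adjusted p = 0.574), and EIF5B, with -0.64 (SE 0.26, unadjusted p = 0.0253, adjusted p = 0.588). EIF5B, the GTPase that joins the subunits, had a log2 FC of 0.23 in Input and -0.37 in Polysome. Whatever the fold, 6 EIF genes with a lower change and 1 with a higher one had an unadjusted p below 0.05 in edgeR. Over all 14958 genes these were 701 and 388. The 1 higher gene was EIF4E, with a difference of 0.35 (SE 0.16, unadjusted p = 0.0384, adjusted p = 0.642). Without the 3 libraries that stood apart, 5 EIF genes were called lower, EIF1 (-0.68), EIF3F (-0.79), EIF4E2 (-0.60), EIF4G1 (-0.52) and EIF5B (-0.59), beside 4.30% of all genes called lower and 0.691% higher in that fit. The median difference was -0.10 over the EIF genes and -0.06 over all genes.

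The fractions differed more than the treatments. In Ctrl, 16 EIF genes were lower and 10 higher in Polysome than in Input, beside 18.2% and 19.4% of all 14958 genes. In siRNAG5, 21 were lower and 10 higher, beside 25.4% and 21.5%. The median log2 ratio of Polysome to Input over the 52 genes was -0.25 in Ctrl and -0.40 in siRNAG5, and over all genes -0.04 and -0.12. These ratios compare shares of each library, not amounts of RNA.

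Of the 16 genes called lower in Ctrl, 8 encode eIF3 subunits. In Ctrl 8 of the 14 eIF3 genes were called lower and 1 higher, and in siRNAG5 11 lower and 1 higher, with medians of -0.92 and -0.95. EIF3L had 408, 399, 401 and 384 CPM in Input Ctrl and 131, 138, 111 and 109.8 CPM in Polysome Ctrl, so every Input library was far above every Polysome library. Its log2 ratio was -1.70 (SE 0.14, adjusted p = 4.17e-08, edgeR). EIF3D, whose product can bind the cap of some mRNAs, had 526, 491, 560.3 and 576 CPM in Input Ctrl and 142, 192, 219 and 257 CPM in Polysome Ctrl (log2 ratio -1.41, SE 0.15, adjusted p = 8.2e-07). EIF3H had 582, 531, 555 and 529 CPM in Input Ctrl and 171, 251, 202 and 222 CPM in Polysome Ctrl (-1.38, SE 0.13, adjusted p = 1.87e-07). None of these groups overlapped.

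EIF3C had 11.1, 11.0, 9.25 and 12.1 CPM in Input Ctrl and 1.58, 2.95, 5.41 and 4.41 CPM in Polysome Ctrl (-1.57, SE 0.26, adjusted p = 6.11e-05). Its near copy EIF3CL had 1.59, 1.12, 2.49 and 1.99 CPM in Input Ctrl and 0.749, 0.412, 0.781 and 0.629 CPM in Polysome Ctrl (-1.46, SE 0.41, adjusted p = 0.00707). Both pairs of groups were apart, at low levels. Without Input Ctrl 3 and 4 the EIF3CL ratio was -1.04 and was not called. In siRNAG5 the ratios of EIF3L, EIF3D, EIF3H and EIF3C were -1.59, -1.49, -1.46 and -1.29, and that of EIF3CL -0.94. EIF3E and EIF3F had ratios of -1.18 and -1.05 in Ctrl and -1.37 and -1.52 in siRNAG5.

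EIF3J, a loosely held subunit, was the exception within eIF3. It had 80.5, 81.3, 69.0 and 67.9 CPM in Input Ctrl and 106, 147, 113 and 129 CPM in Polysome Ctrl. All Polysome libraries were above all Input libraries, and the log2 ratio was 0.73 (SE 0.12, adjusted p = 4.79e-05, edgeR) in Ctrl and 0.59 (adjusted p = 0.000251) in siRNAG5. EIF3A and EIF3B were not called, at -0.04 and -0.26 in Ctrl and 0.15 and -0.39 in siRNAG5.

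**Figure D3:**
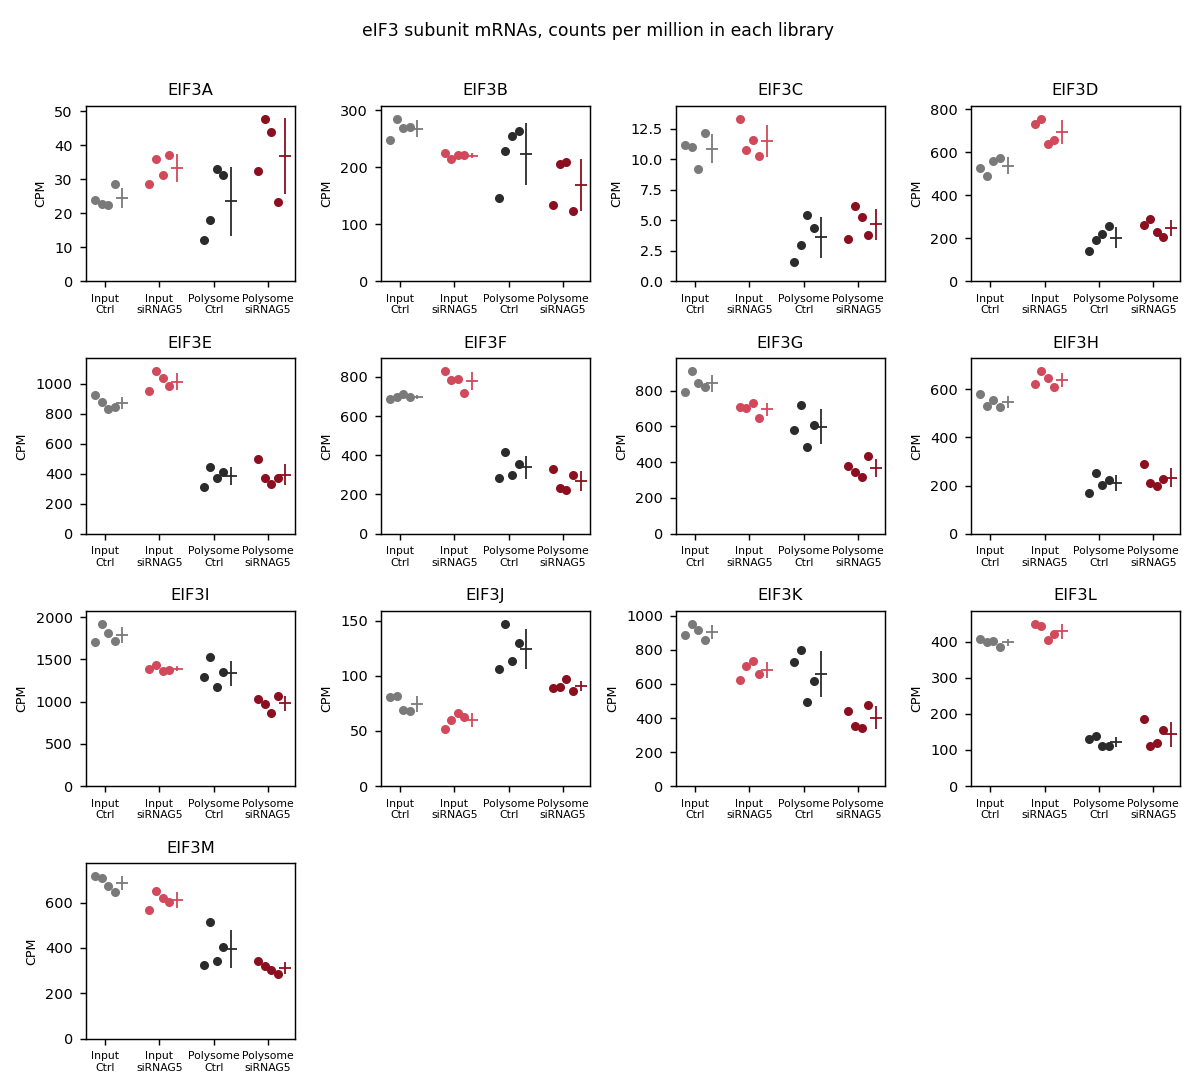
Levels of 13 eIF3 subunit mRNAs (y axis, CPM, from 0) in each library of the 4 groups (x axis), with points for libraries and a bar for the mean and SD of 4. EIF3C, EIF3D, EIF3E, EIF3F, EIF3H and EIF3L drop from Input to Polysome in both treatments, EIF3J is higher in Polysome, and EIF3A spreads from 12.2 to 47.7 CPM over the Polysome libraries.

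Of the genes with high ratios, EIF4H had 94.4, 94.6, 92.6 and 94.0 CPM in Input Ctrl and 258, 288, 317 and 325 CPM in Polysome Ctrl (log2 ratio 1.66, SE 0.10, adjusted p = 1.08e-09, edgeR). EIF4G2, which encodes DAP5, a scaffold that lacks the part of eIF4G that binds eIF4E, had 402, 368, 348 and 358 CPM in Input Ctrl and 894, 814, 871 and 780.1 CPM in Polysome Ctrl (1.19, SE 0.11, adjusted p = 1.32e-07). EIF1AX, the gene for eIF1A, had 174, 171, 162 and 157 CPM in Input Ctrl and 316, 383, 316 and 344 CPM in Polysome Ctrl (1.03, SE 0.11, adjusted p = 7.6e-07). Every Polysome library was above every Input library for these genes, and in siRNAG5 the ratios were 1.47, 1.33 and 1.15. EIF5AL1 had a ratio of 0.74 (SE 0.15, adjusted p = 0.000507) in Ctrl and 0.42 in siRNAG5, where it was not called.

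The other classes are given by their counts. All 4 eIF2 kinase genes had positive ratios in both treatments, and 2 were called higher in Ctrl and 3 in siRNAG5, EIF2AK2 with 0.72 and 1.16. Of the 5 eIF2B genes 3 were called lower in each treatment, EIF2B3, EIF2B4 and EIF2B5, from -0.97 to -0.66. In the eIF2, eIF2A and eIF2D class 3 of 6 were called lower in each treatment. EIF2A (-0.90 and -1.08) and EIF2D (-0.67 and -0.87) were among them, and so was EIF2S1 (-0.56 and -0.57), which was not called without the 3 libraries that stood apart. EIF4A3 was lower (-1.09 and -1.40), as was EIF6, whose product keeps the ribosomal subunits apart (-0.77 and -0.70). EIF4G1 and EIF5B were called lower in siRNAG5 only, at -0.79 and -0.92 against -0.07 and -0.28 in Ctrl, and the test of that difference is the interaction given above. Without the 3 libraries that stood apart EIF4G1 was at -0.41 in siRNAG5 and was not called.

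**Figure D4:**
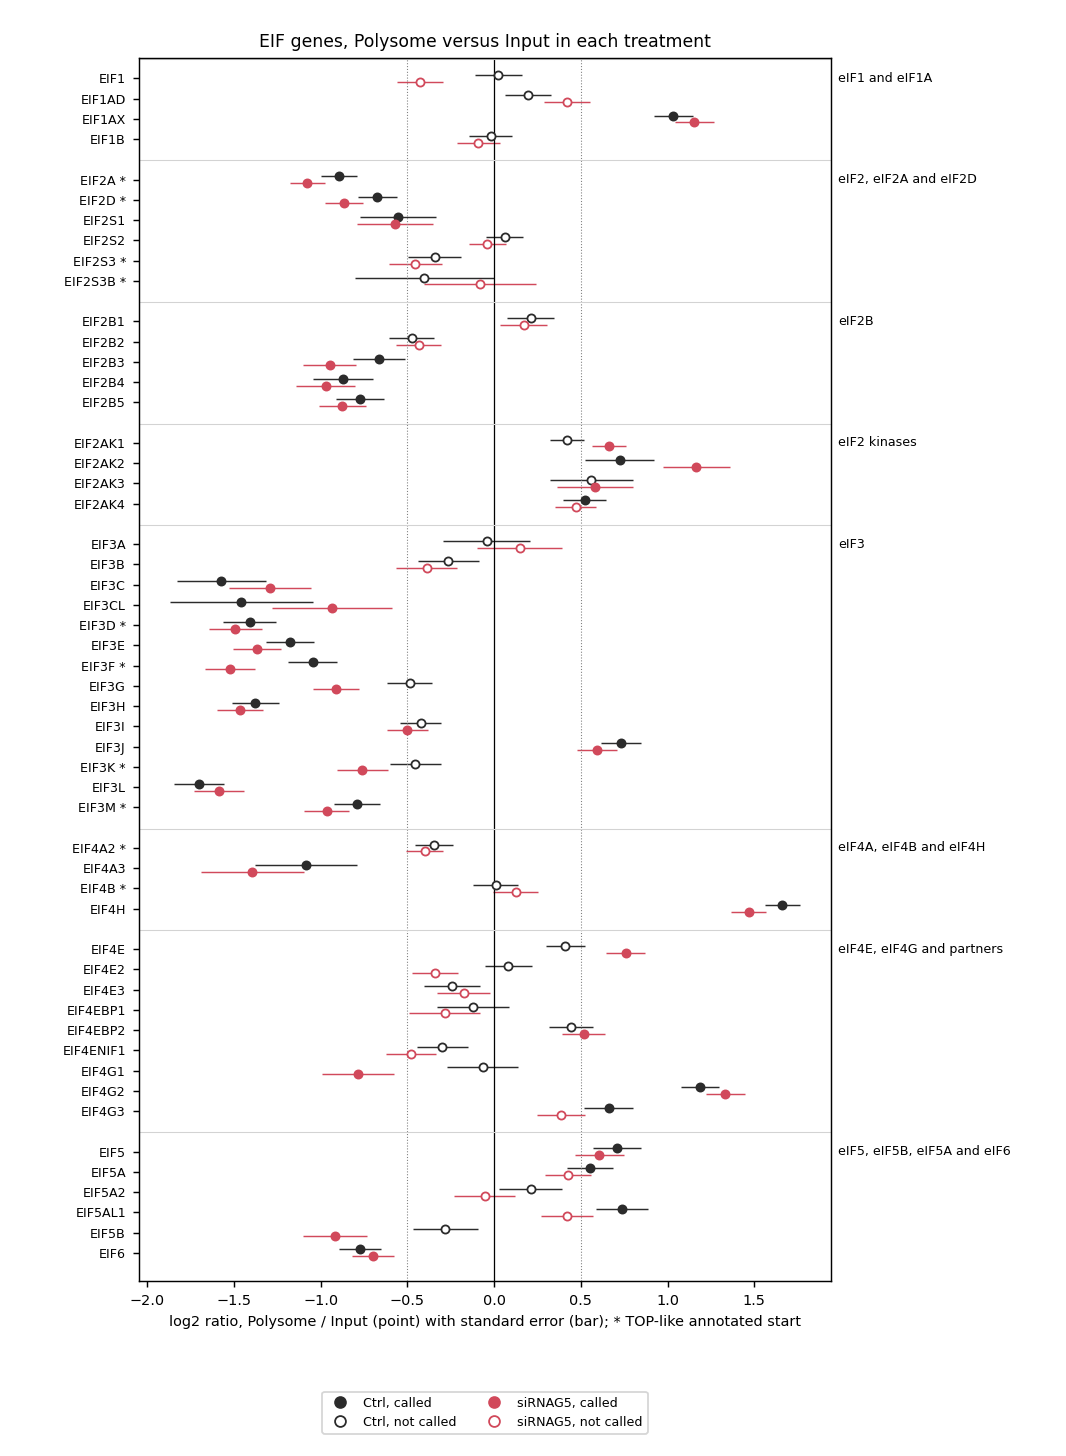
Log2 ratio of Polysome to Input (x axis) for the 52 tested genes (y axis, grouped by factor) in Ctrl (black) and siRNAG5 (red), with standard errors as bars, filled points for called genes, dotted lines at 0.5 in either direction and asterisks on genes with a TOP-like annotated start. Most eIF3 genes lie left of 0, EIF4H, EIF4G2 and EIF1AX lie right of 1.0 in both treatments, and 9 of the 10 marked genes lie left of 0 in each treatment.

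Of the 10 genes with a TOP-like start printed above, 9 had a negative Polysome to Input ratio in Ctrl and 9 in siRNAG5. In Ctrl 5 were called lower and 0 higher, with a median of -0.56 and a range from -1.41 (EIF3D) to 0.01 (EIF4B). The 33 tested genes with a start of another kind had a median of 0.08, with 7 called lower and 10 higher. In siRNAG5 the medians were -0.81 and -0.09. Start type goes with class here, since all but EIF4A2 and EIF4B of the 10 belong to eIF3 or to the eIF2, eIF2A and eIF2D class. The Ctrl medians of these 2 classes were -0.92 and -0.48, and that of eIF2B, with no gene among the 10, was -0.66. The parts of start and class in the contrast were not tested. With silencing, the 10 genes had a median log2 FC of 0.19 in Input and 0.20 in Polysome, and the other 33 of -0.23 and -0.29. EIF4A2 was the only one of the 10 called in either fraction. No called gene that fell had a TOP-like start among those with an entry. The difference between the fractions in the change with silencing had a median of -0.14 over the 10 genes and of -0.10 over the 33. With C and at least 6 pyrimidines 8 genes remained, with a median ratio in Ctrl of -0.73, against 0.02 over the other 35. With a run anywhere from 5 bases before to 5 after the start there were 20 genes (42.6%). Such a run was found in 25.2% of all genes and 21.1% of all starts. The 19 tested genes with it had a median ratio in Ctrl of -0.34, with 6 called lower and 3 higher. The 24 without it had -0.13, with 6 lower and 7 higher, so the contrast was smaller under this rule. Reads with several places were not counted and were more frequent in Polysome. The 23 tested genes with a pseudogene of their own name had a median ratio in Ctrl of 0.02, and the 29 without one of -0.30.

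Of 34 partner genes of the pathway, 33 were tested in Input, where 0 were called lower and 4 higher, beside the 6.02% and 10.5% of all genes. In Polysome 1 was lower and 3 higher of 32, beside 4.00% and 3.95%. The elongation factor genes EEF1A2 and EEF2 rose in both fractions, with log2 FC of 1.28 and 0.80 in Input (adjusted p = 4.81e-11 and 1.77e-09, edgeR) and 0.92 and 0.69 in Polysome (adjusted p = 0.0158 and 0.0384). EEF1D fell in Polysome (-0.82, SE 0.18, adjusted p = 0.022) and had -0.04 in Input. In the list of signalling to initiation, DDIT3, a stress-induced transcription factor gene downstream of eIF2 phosphorylation, rose, with a log2 FC of 1.37 in Input (adjusted p = 5.56e-09) and 1.16 in Polysome (adjusted p = 0.0242). PPP1R15A, which brings a phosphatase to eIF2, rose in Input (0.68, adjusted p = 0.00033). ATF4, the translationally controlled factor upstream of both, had a log2 FC of 0.28 in Input (adjusted p = 0.000596), within the fold limit, and 0.19 in Polysome. The lists for termination and recycling, poly(A) tail binding, and scanning and start had no called gene in either fraction. In the comparison of fractions 5 of 7 elongation genes were called lower in Polysome in each treatment, and 1 higher.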

How the data were processed

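RNA-seq counts of 16 HEK293 libraries (TruSeq Stranded mRNA, paired ends) were used. The deposited values are counts of read pairs per Ensembl gene that the authors made with STAR 2.5.3a (per the submitters' notes) and QoRTs on GRCh38 with Ensembl 91. Reads with several places or several genes stayed out of gene counts. Symbols, coordinates and lengths came from GENCODE v44 (same build), which named 57532 identifiers, and starts from RefSeq promoters. The members and gene lists were chosen with earlier results of these data known.

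Fits used edgeR 4.0.16 (filterByExpr, TMM, glmQLFTest), within each fraction for silencing and over all 16 libraries for the interaction and the fractions. P-values were adjusted over all genes tested. No libraries were duplicates (chi-square per degree of freedom at least 3.17). The edgeR fitting code was tested on simulated counts with known changes. Those changes were larger than the called silencing changes of the EIF genes, and the simulated spread was below that of Polysome. Deviations of same-numbered libraries correlated between -0.53 and 0.48 across treatments and between -0.21 and 0.22 across fractions. Input and Polysome RNA came from the same lysates, but no source used here says that a shared number marks a shared lysate, so the main fits have no block. Named with values by library are genes called in either fraction, EIF4E, EIF4G1, EIF4A1, EIF2S1, EIF3A, EIF4EBP1 and the 5 genes with the largest Polysome to Input ratios in each direction. Alternatives were RLE scaling, no filter, DESeq2 1.42.0, replicate block, unadjusted p, no fold limit, 1 surrogate variable (sva 3.50.0), single libraries left out, 3 Polysome libraries left out and, chosen after seeing the data, 2 Input Ctrl libraries left out and a replicate block within each treatment.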

Additional observations from a re-analysis of the deposited data

Results flagged for a closer look

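In 5 of 88 groups of 4 libraries, 1 library lay far from the other 3 by Dixon's test with a critical value of 0.829. By chance this is found in about 1 in 20 groups. The 88 groups were those with at least 20 reads among the genes named with values by library, and the other EIF genes were not screened. EIF1AX was low in Input siRNAG5 1, at 110.5 CPM against 139.7 to 144 CPM in the other 3 libraries. EIF2S1 was low in the same library, at 70.0 CPM against 88.0 to 90.8 CPM. EIF5A was high in Input siRNAG5 3, at 916 CPM against 823 to 835 CPM. EIF5AL1 was high in Polysome Ctrl 2, at 26.0 CPM against 18.6 to 19.5 CPM. EIF3CL was high in Polysome siRNAG5 1, at 2.00 CPM against 0.646 to 0.731 CPM.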

How the results depend on the processing

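In Input 7 genes were called, and 6 to 8 with 1 library left out. Without the fold limit 34 passed. In Polysome 6 were called, and 1 to 7 with 1 library left out. There the count was 11 with unadjusted p, 13 with 1 surrogate variable, 10 without the 3 libraries that stood apart and 10 with all 16 libraries in one fit. Without the 3 libraries 12.1% of all genes were called lower and 9.02% higher, against 4.00% and 3.95% in the main fit. The interaction called 0 genes, and 0 with any 1 library left out, but 2 with unadjusted p, 2 with 1 surrogate variable and 5 without the 3 libraries. Of all genes, unadjusted p gave 3.46% lower and 1.82% higher, and the fit without the 3 libraries 4.30% and 0.691%. For settings with no share here or above, the share of all genes is not given, so these counts do not set EIF genes apart. Polysome against Input called 24 to 27 genes in Ctrl and 28 to 31 in siRNAG5 with 1 library left out. The cause of these moves was not tested. TOP-like starts numbered 20 with the wider window. Of the values of single named genes under the alternatives, 639 kept their direction and their side of the limits, 26 passed only under the alternative, 37 were lost and 0 reversed.

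With the replicate block 7 genes were called in Input, 5 in Polysome, 0 in the interaction, and 26 in Ctrl and 31 in siRNAG5 between the fractions. In Polysome 3 of the 6 calls were shared (EIF4A2, EIF4E2 and EIF5AL1), EIF2B1, EIF3G and EIF5A were not called (adjusted p = 0.0701, 0.0626 and 0.0677, edgeR), and EIF2B3 and EIF4G1 were. With a replicate block within each treatment, for lysates shared by Input and Polysome, 27 and 32 genes were called between the fractions, among them all 26 and 31, and 0 in the interaction. The shares of all genes called in the block fits are not given here, so these counts cannot be set against other genes. The labels do not say what a number shares. Of 4 libraries, 1 (Input) and 0 (Polysome) correlated best with their own number across treatments, and 2 and 2 across fractions.

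The larger spread between Polysome libraries limits what 4 libraries a group can show there. Counts of near copies, of genes that share exons and of genes with pseudogenes miss reads. Ctrl libraries with liver marker reads cannot be told apart from the Ctrl treatment in Polysome. P-values set each difference against the spread between the libraries of its fit, with 4 libraries a group, all of one cell line. In the fits over all 16 libraries, Input and Polysome shared the estimate of that spread.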
